A study of Mus musculus with 9 samples.

Results

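The data described here are the array signals of genes of the cell cycle and of DNA replication in the jejunum of mice. The members were 40 genes listed by name, and a gene was measured if the symbol of an array probe equalled its name. Probes were found for 33 of the 40 members, out of 15674 genes with a symbol on the array. There was no probe under the symbols of *Mki67*, *Ccnb1*, *Cdt1*, *Aurka*, *Aurkb*, *Cdca8* and *Espl1*. Jejunal RNA was measured in 9 male mice of the outbred stock OF1, aged 7 weeks, on single-colour Applied Biosystems arrays with 1 mouse per array. The mice were of generation 3 kept on feed B (mice 7, 8 and 10), feed K (mice 1, 3 and 4) or feed G (mice 4, 8 and 11). A custom maize diet was the object of the original trial, but the sources used here do not tie it to a letter, and none is treated as a control here, and a mouse number shared by feeds does not mark the same mouse. All mice went without food for 3 h during the light phase, a 2 cm piece of the jejunum around the middle of the small intestine was taken, and the time of day was neither recorded nor randomized between feeds.

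Cells of the intestinal lining are replaced continuously from the crypts, where stem cells and their progeny pass through the cell cycle before they differentiate and move onto the villi. D-type and E-type cyclins with E2F factors carry a cell from G1 into S phase, in which the MCM helicase, loaded onto origins by Cdc6 and Cdt1, opens the DNA for copying. Cyclins A and B with Cdk1 then drive mitosis, in which kinetochore proteins and the spindle checkpoint hold the chromosomes until Cdc20 starts anaphase. In RNA of a whole tissue piece, fewer dividing cells and less RNA per dividing cell cannot be told apart.

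A gene counted as detected in a mouse when 1 of its probes or more had a signal-to-noise ratio no lower than 3. Of the 33 members with a probe, 17 were detected on all 9 arrays. The feed tests required detection on 3 arrays or more, which 28 members met, while 4 were detected on 1 or 2 arrays and *Cdc2a*, the older symbol of the kinase gene *Cdk1*, on none. The number of members detected differed between mice: it was 24, 18 and 28 in mice 7, 8 and 10 of feed B, 30, 29 and 26 in mice 1, 3 and 4 of feed K, and 27, 29 and 28 in mice 4, 8 and 11 of feed G. Mouse 8 of feed B had the lowest count, and its array also detected the smallest share of all probes, 33.7%, against up to 48.1% on the other arrays. Of the 7 members with no probe under their symbol, *Cdt1*, *Aurka* and *Cdca8* had one under an older name with the same RefSeq transcript, and these 3 were detected on all 9 arrays. They are given as side values and are not counted among the 33.

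The promoters of 4 members are shown because they belong to the most strongly co-varying pair of each list that had 2 promoter sequences: *Top2a* and *Cenpa* for mitosis, *Mcm3* and *Mcm6* for S phase. The sequences are from RefSeq (build GRCm38.p6), 5′ to 3′ on the strand of the gene, 250 bases before to 50 bases after the start. Capitals mark 3 motifs on either strand: the cell cycle homology region, TTTGAA, the CCAAT box, CCAAT, and the E2F motif, as any of TTTGGCGC, TTTCGCGC and TTTCCCGC. Matches that overlap were each counted.
Top2a, chr11:99024140-99024439, minus strand: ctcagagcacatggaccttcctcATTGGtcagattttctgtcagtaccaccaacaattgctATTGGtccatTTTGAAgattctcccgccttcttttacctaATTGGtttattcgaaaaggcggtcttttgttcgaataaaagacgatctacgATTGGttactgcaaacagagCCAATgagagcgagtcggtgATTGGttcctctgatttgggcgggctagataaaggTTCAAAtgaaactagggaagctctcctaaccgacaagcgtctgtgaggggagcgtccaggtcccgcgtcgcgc
Cenpa, chr5:30666636-30666935, plus strand: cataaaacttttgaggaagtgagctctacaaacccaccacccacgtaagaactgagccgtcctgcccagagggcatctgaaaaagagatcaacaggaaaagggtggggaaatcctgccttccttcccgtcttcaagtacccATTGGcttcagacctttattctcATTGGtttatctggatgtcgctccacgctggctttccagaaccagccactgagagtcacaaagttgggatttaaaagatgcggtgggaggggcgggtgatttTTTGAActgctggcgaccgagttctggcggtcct
Mcm3, chr1:20820263-20820562, minus strand: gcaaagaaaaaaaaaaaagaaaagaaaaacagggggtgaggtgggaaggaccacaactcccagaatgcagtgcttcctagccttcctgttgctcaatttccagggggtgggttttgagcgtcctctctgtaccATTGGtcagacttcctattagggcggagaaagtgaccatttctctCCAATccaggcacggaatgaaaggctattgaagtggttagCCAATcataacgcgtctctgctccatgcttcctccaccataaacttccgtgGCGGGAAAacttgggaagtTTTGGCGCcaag
Mcm6, chr1:128359656-128359955, minus strand: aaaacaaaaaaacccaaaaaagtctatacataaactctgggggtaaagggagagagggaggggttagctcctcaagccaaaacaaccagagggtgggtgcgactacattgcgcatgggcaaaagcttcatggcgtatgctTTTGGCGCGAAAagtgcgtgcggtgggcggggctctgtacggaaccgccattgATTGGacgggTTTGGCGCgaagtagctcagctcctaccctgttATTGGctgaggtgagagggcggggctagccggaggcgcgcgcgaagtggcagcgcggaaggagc

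Promoter sequences were found for 27 of the 33 members. TTTGAA was present in 9 of 14 promoters of mitosis genes and in 1 of 14 of S phase genes, compared with 17.9% of all 32851 promoters. The E2F motif was present in 5 of 14 promoters of S phase genes and in 1 of 14 of mitosis genes, compared with 1.84% of all promoters. The CCAAT box was the common element, with 12 of 14 promoters of mitosis genes and 9 of 14 of S phase genes, against 37.4% of all. In the sequences shown, *Top2a* held TTTGAA 2 times and the CCAAT box 6 times, whereas *Mcm6* held the E2F motif 3 times and no TTTGAA. These are matches of letters, and binding was not measured here.

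Signals below are log2 values after quantile normalization, and they are compared between mice for 1 gene at a time, never between genes. Among the genes of G1/S control, only *Ccnd1*, the cyclin that pairs with Cdk4 and Cdk6 in G1, was detected on all arrays. Its log2 signal was 12.96, 12.39 and 12.77 in mice 7, 8 and 10 of feed B, 14.04, 12.86 and 13.67 in mice 1, 3 and 4 of feed K, and 13.03, 12.58 and 12.60 in mice 4, 8 and 11 of feed G. Mice 1 and 4 of feed K were the highest of all, while mouse 3 of that feed lay within the range of the other feeds. *Ccne1*, the cyclin E that acts at the entry into S phase, was detected on 7 arrays with a log2 signal of 8.53, 6.18 and 7.85 on feed B, 9.05, 8.51 and 9.31 on feed K, and 8.63, 8.60 and 7.39 on feed G, in the same order of mice. It was not detected in mouse 8 of feed B and mouse 11 of feed G, its lowest values. *Ccne2*, the second cyclin E, was detected only in mouse 1 of feed K, and *E2f1*, an activator of S phase genes, only in mice 3 and 4 of feed K.

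For a member that was not detected on any array of a feed there is only a rough bound. It was computed from the mean log2 signal of the brighter feed over all its mice, against the mean of the dim feed with each array set to its own value or to the dimmest detected probe there, whichever was higher. The bound is not a strict lower limit, since the mean of the brighter feed includes arrays that did not detect the gene. Probes also differ in their limits: in mouse 8 of feed B *Ttk* was not detected at 9.06, while *Bub1b* was at 6.19. For *Ccne2* the bound was 2.06-fold for feed K over feed B and 2.40-fold for feed K over feed G, but only 1 of 3 arrays of feed K detected it. For *E2f1*, detected on 2 of 3 arrays of feed K, the bounds were 1.57-fold and 1.07-fold. *Tyms*, which makes thymidylate for DNA, was detected only in mouse 11 of feed G, and its bound was 1.21-fold against feed B, with no fold above 1 against feed K, where 1 of the 3 spots had failed. *Ttk*, a checkpoint kinase, was detected in mouse 1 of feed K and mouse 8 of feed G only, and no bound above 1 could be given. None of these 4 genes, each detected on fewer than 3 arrays, entered a test.

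Of the genes of licensing and the helicase, *Mcm3*, *Mcm4*, *Mcm5* and *Mcm6*, subunits of the MCM ring, were detected on all arrays. *Mcm4* had the narrowest range of these, 1.88-fold from lowest to highest mouse, with 11.76, 11.61 and 11.41 on feed B, 11.83, 11.33 and 11.97 on feed K, and 11.56, 11.61 and 11.06 on feed G. *Mcm5* had the widest, 2.16-fold, with 12.21, 11.76 and 11.87 on feed B, 12.07, 11.43 and 12.32 on feed K, and 11.94, 11.93 and 11.21 on feed G. Both were lowest in mouse 11 of feed G and next lowest in mouse 3 of feed K, and the 3 feeds overlapped. *Mcm6* was 10.87, 10.06 and 10.78 on feed B, 10.79, 10.74 and 10.79 on feed K, and 11.08, 11.11 and 10.65 on feed G. Like *Mcm3* (range 2.04-fold), it was lowest in mouse 8 of feed B. *Mcm7* was detected on 8 arrays, the loading factor *Cdc6* on 7 and *Mcm2* on 6. *Cdt1*, the other loading factor, measured under its older name, ranged 2.85-fold and was lowest in mouse 11 of feed G, at 8.35.

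Among the genes of the replication fork and of nucleotide supply, *Pcna*, the sliding clamp of the DNA polymerases, was the most uniform member of all. Its log2 signal was 13.50, 13.31 and 13.20 on feed B, 13.25, 13.11 and 13.31 on feed K, and 13.47, 13.69 and 13.39 on feed G, a range of 1.49-fold. All mice of feed G lay above all mice of feed K, by little. *Rrm2*, a subunit of ribonucleotide reductase, which makes deoxyribonucleotides, was 9.29, 8.86 and 9.29 on feed B, 9.87, 9.52 and 9.80 on feed K, and 9.16, 9.39 and 8.70 on feed G. Its values on feed K lay above those of both other feeds without overlap, and it was not detected in mouse 8 of feed B. *Tk1*, the thymidine kinase of dividing cells, was detected in every mouse but mouse 8 of feed B, where its log2 signal was 7.54 against at least 9.02 in the others. *Rrm1*, the other reductase subunit, and *Mcm2* were not detected on the same 3 arrays, those of mice 7 and 8 of feed B and mouse 4 of feed K. Signal-to-noise ratios there were 0.84, 0.74 and -0.96 for *Rrm1* and 0.73, 0.31 and 1.98 for *Mcm2*, while on the other arrays they were at least 5.77 and 4.25.

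In the group of Cdk1, cyclins A and B, Foxm1 and anaphase genes, *Ccna2*, cyclin A, which acts in S phase and G2, was detected on all arrays. Its log2 signal was 10.79, 9.63 and 11.10 on feed B, 11.19, 10.51 and 10.12 on feed K, and 10.27, 10.90 and 10.32 on feed G. The lowest and the second highest value were both on feed B, and the feeds overlapped throughout. *Ccnb2*, a mitotic cyclin B, was detected on 8 arrays, with 9.75, 7.82 and 9.58 on feed B, 10.17, 9.45 and 9.65 on feed K, and 9.75, 10.38 and 9.88 on feed G. Mouse 8 of feed B, in which it was not detected, stood 1.64 log2 units under the next mouse. *Foxm1*, a transcription factor of G2 and mitosis genes, was detected on 7 arrays and was lowest in the same mouse, at 7.14.

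*Cdc20*, the activator of the anaphase-promoting complex, had the widest range of this group, 7.11-fold, but this came from how its 2 probes were averaged. The averaged log2 signal was 9.71, 8.78 and 9.88 on feed B, 9.32, 8.60 and 8.92 on feed K, and 9.12, 8.74 and 11.43 on feed G. One probe was detected on all 9 arrays, with signal-to-noise ratios between 11.1 and 61.6, and the other on 1 array only. The dim probe's spot failed its quality flag in mouse 11 of feed G, so that the value of 11.43 is that of the bright probe alone. On the bright probe that mouse was the lowest of all, and the range was 2.06-fold. *Mad2l1*, a checkpoint protein that holds Cdc20 back, likewise had a second probe detected on 1 array only.

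Among mitotic kinases and the passenger complex, *Plk1*, a kinase of centrosomes and spindles, was the narrowest with probes averaged, with a range of 1.70-fold. Its log2 signal was 10.78, 10.49 and 10.98 on feed B, 11.26, 10.76 and 11.26 on feed K, and 10.79, 10.95 and 10.56 on feed G. Mice 1 and 4 of feed K had the highest values, which were equal at this precision, and they were also the highest mice for *Ccnd1*. *Birc5*, survivin of the chromosomal passenger complex, had 15.22, 14.43 and 15.09 on feed B, 14.95, 15.10 and 15.06 on feed K, and 15.05, 15.21 and 14.98 on feed G. Its value in mouse 8 of feed B was the lowest, but both *Birc5* probes were detected on all arrays and did not follow each other, with r = 0.05 over the 9 mice. The dimmer probe was lowest in mouse 8 of feed B, at 10.73 against at least 11.30 in the others, and the brighter one in mouse 1 of feed K. The brighter *Birc5* probe ranged 1.54-fold, less than *Plk1*. *Nek2*, a centrosome kinase, was detected on 8 arrays. *Aurka* and *Cdca8*, measured under older names, ranged 2.13-fold and 1.88-fold, and neither was lowest in mouse 8 of feed B.

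All 5 genes of the kinetochore and the checkpoint were detected on all arrays. *Bub1b*, the checkpoint kinase BubR1, had the widest range of any member detected throughout, 14.0-fold, with 8.91, 6.19 and 9.65 on feed B, 10.00, 9.04 and 9.53 on feed K, and 9.48, 9.78 and 9.17 on feed G. This range rested on mouse 8 of feed B, where its signal-to-noise ratio was 3.53, close to the detection limit of 3. *Mad2l1* was the narrowest, 1.78-fold, with 9.14, 9.45 and 8.93 on feed B, 9.32, 9.37 and 9.05 on feed K, and 9.02, 9.15 and 8.61 on feed G. On its bright probe alone the range was 2.17-fold, and mouse 11 of feed G was lowest on both scales. *Cenpa*, the histone variant of centromeres, ranged 2.66-fold and *Bub1*, a checkpoint kinase, 2.12-fold. For *Cenpe*, a kinetochore motor, the brighter probe was detected on 8 arrays and the other on 4, and the pair gave r = -0.36 over the mice.

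Of the motors and chromosome markers, *Top2a*, the topoisomerase that untangles chromosomes before they part, and *Kif20a*, a motor of cytokinesis, were detected on all arrays, and *Kif11*, the motor that separates the spindle poles, on 7. The log2 signal of *Top2a* was 11.56, 10.20 and 11.67 on feed B, 11.74, 11.32 and 11.22 on feed K, and 11.13, 11.71 and 11.03 on feed G. That of *Kif20a* was 10.79, 9.52 and 10.53 on feed B, 10.39, 9.92 and 10.25 on feed K, and 10.29, 10.64 and 9.78 on feed G. For both, mouse 8 of feed B was the lowest of the 9 mice, while the other mice of feed B were among the highest, so the spread within feed B exceeded any distance between feed means.

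**Figure D1:**
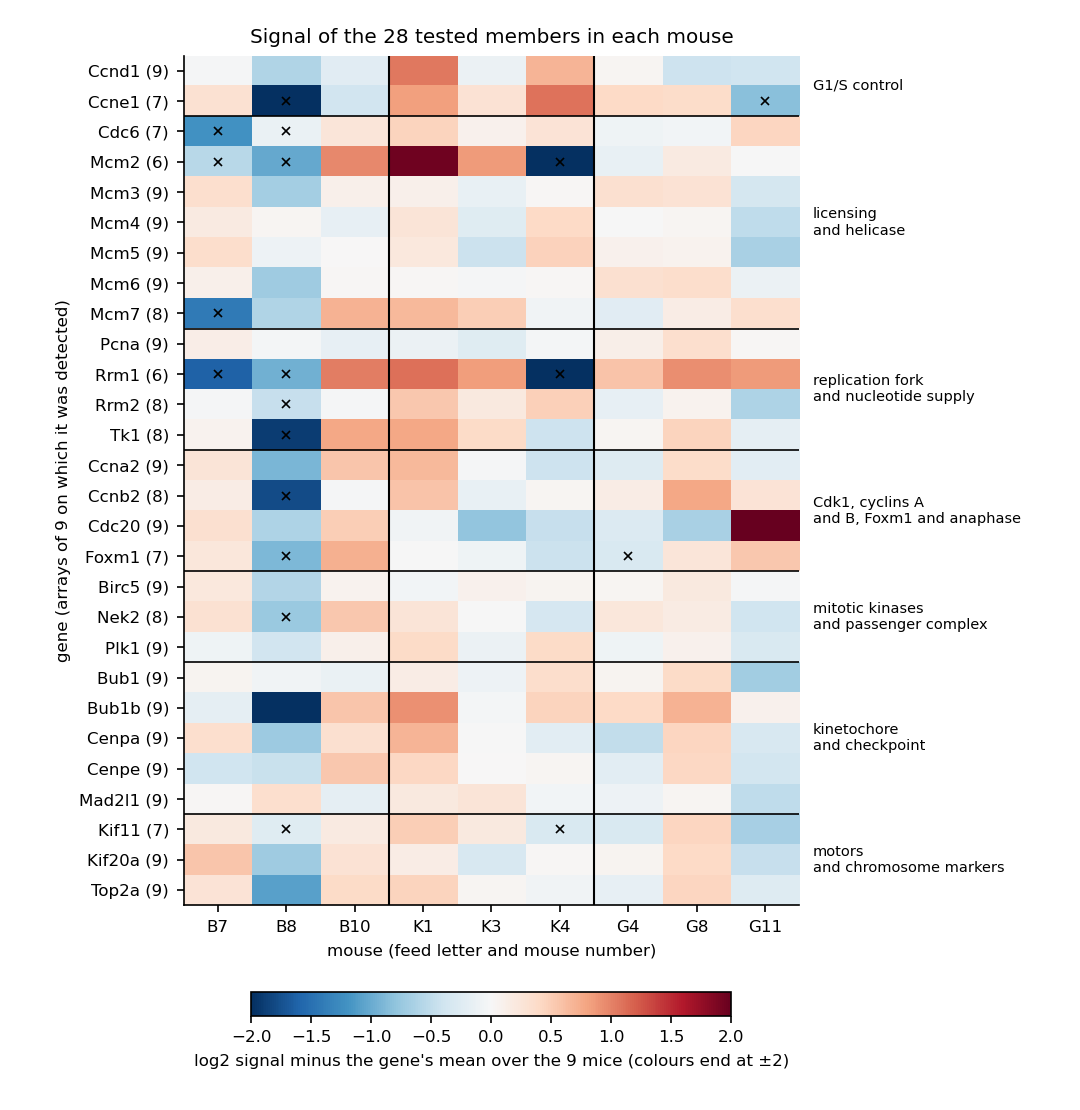
Log2 signal of the 28 tested members (rows, by role, with the number of arrays of 9 that detected each) in each mouse (columns, by feed letter and mouse number), as the difference from the mean of the gene over the 9 mice. Crosses mark genes not detected on that array. Mouse 8 of feed B is low for genes of most roles, whereas *Pcna* stays near 0 throughout.

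**Figure D2:**
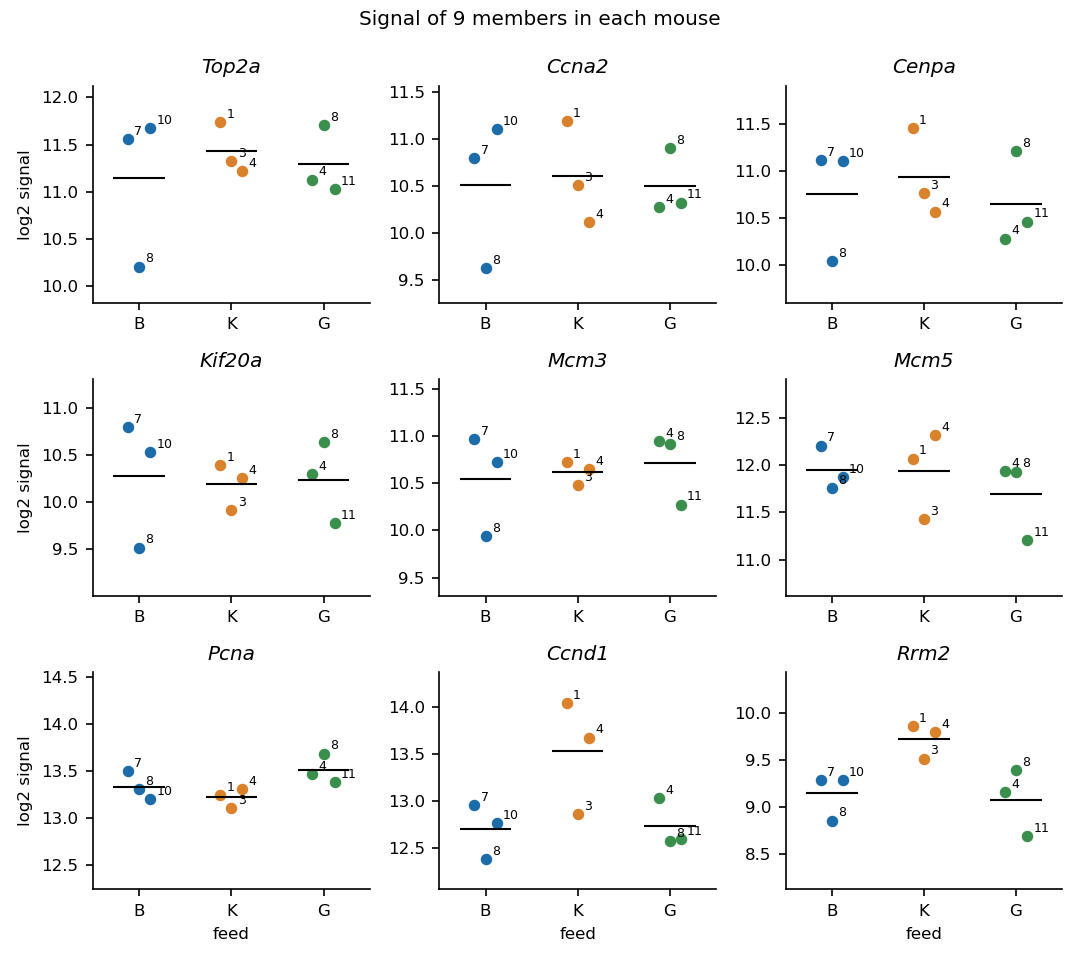
Log2 signal of 9 members in each mouse (points, with mouse numbers) by feed (x axis), with feed means as lines, and all panels spanning the same log2 range. In *Top2a*, *Ccna2*, *Cenpa* and *Kif20a* mouse 8 of feed B lies lowest, and in *Rrm2* the 3 mice of feed K lie above the others.

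The pattern over single mice was shared by many members. Of the 17 members detected on all arrays, 11 had their lowest value in mouse 8 of feed B, whereas 10.8% of all 5887 genes detected on all arrays did. The share over all genes depended on the scaling, with 15 of 17 members and 43.1% of all genes under median scaling, 13 of 17 and 13.8% in the table of the series, and 11 of 17 and 30.2% with dim spots (signal-to-noise under 1) left out. A further 4 members were lowest in mouse 11 of feed G (17.3% of all genes) and 2 in mouse 3 of feed K (9.33%). With the brightest probe of each gene in place of the mean of its probes, the counts were 9 in mouse 8 of feed B (9.84% of all genes) and 6 in mouse 11 of feed G (17.9%). Mice 8 of feed B and 11 of feed G thus held 15 of 17 lowest values, compared with 28.1% over all genes. The highest values lay in mouse 1 of feed K for 5 members and in mice 7 of feed B, 4 of feed K and 8 of feed G for 3 members each.

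The mean of the 17 members, with each gene centred on its mean over the mice, was -0.60 in mouse 8 of feed B on the log2 scale, while the median over all genes detected on all arrays was 0.07 in that mouse. The next lowest mice were mouse 11 of feed G, at -0.18, and mouse 3 of feed K, at -0.13, and the highest was mouse 1 of feed K, at 0.32. On the brightest probes, which leave out the averaging of *Cdc20*, these means were -0.58 in mouse 8 of feed B, -0.34 in mouse 11 of feed G and -0.12 in mouse 3 of feed K. By feed the mean was -0.10 ± 0.43 on feed B, 0.09 ± 0.23 on feed K and 0.01 ± 0.19 on feed G (SD, n = 3). The distance of feeds K and B was close to the SD on feed G and below the SD on the other feeds. The mean in mouse 8 of feed B was -1.09 with median scaling and -0.76 in the table of the series, in which the median over all genes was also below 0 in that mouse, at -0.51 and -0.18.

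The S phase list held 5 genes detected on all arrays (*Mcm3*, *Mcm4*, *Mcm5*, *Mcm6* and *Pcna*) and the mitosis list 10 (*Top2a*, *Cdc20*, *Plk1*, *Bub1*, *Bub1b*, *Birc5*, *Kif20a*, *Mad2l1*, *Cenpa* and *Cenpe*). In mouse 8 of feed B the centred mean was -0.30 for S phase and -0.72 for mitosis genes, whereas in mouse 11 of feed G it was -0.32 and -0.08. The last value contains the averaged *Cdc20*, and on the brightest probes the mitosis mean was -0.36 in mouse 11 of feed G and -0.69 in mouse 8 of feed B. On that scale mouse 11 of feed G was about as low in both lists, while mouse 8 of feed B was lower in the mitosis genes. That contrast depended on the filter. Over members detected on at least 5 arrays, with probes averaged, the means in mouse 8 of feed B were -0.72 for S phase and -0.77 for mitosis genes. For the genes detected on all arrays, with probes averaged, the difference of S phase minus mitosis was 0.11, 0.42 and -0.28 in mice 7, 8 and 10 of feed B, -0.22, -0.12 and 0.12 in mice 1, 3 and 4 of feed K, and 0.24, -0.03 and -0.24 in mice 4, 8 and 11 of feed G. Each feed held mice on both sides of 0 on this scale, and the feed means were 0.08 ± 0.35, -0.07 ± 0.18 and -0.01 ± 0.24 (SD, n = 3) for feeds B, K and G. On the brightest probes the difference was 0.02, 0.39 and -0.19 on feed B, -0.27, -0.13 and -0.03 on feed K, and 0.18, -0.01 and 0.04 on feed G. All mice of feed K were then below 0 and below those of feed G, while feed B spanned both, so that the order of feeds K and G depended on how probes were combined.

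**Figure D3:**
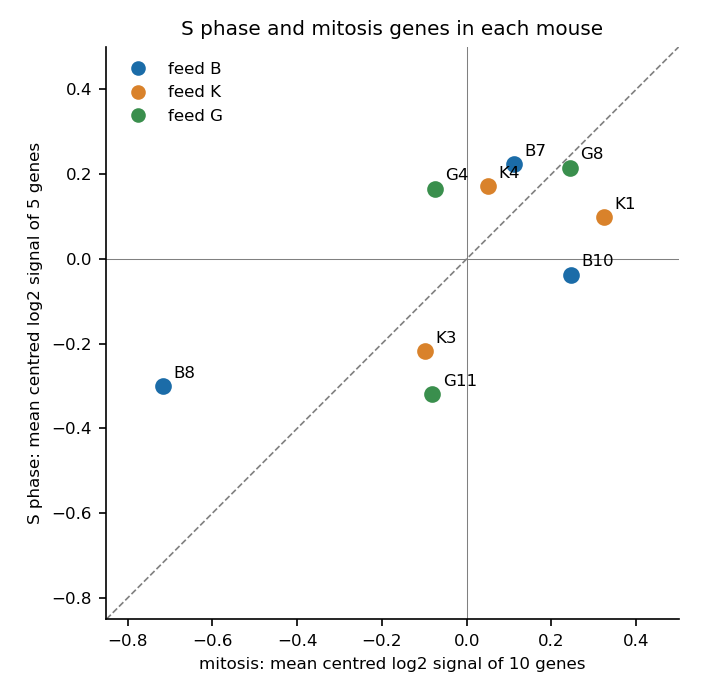
Mean centred log2 signal of the 5 S phase genes (y axis) and of the 10 mitosis genes (x axis) in each mouse, with points coloured by feed and labelled with feed letter and mouse number, and a dashed line where both means are equal. Mouse 8 of feed B lies apart at -0.72 for mitosis and -0.30 for S phase. The mitosis mean of mouse 11 of feed G, -0.08, includes the averaged *Cdc20*.

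Taken as a set, the members varied more over the mice than the genes of the array at large. The median SD of log2 signal was 0.35 for the 17 members and 0.29 for the 5887 genes detected on all arrays, and it was 0.31 for the 5 S phase and 0.40 for the 10 mitosis genes. The signal stayed within 2-fold from lowest to highest mouse for 6 of 17 members (35.3%), compared with 57.9% of all genes. Without mouse 8 of feed B the medians were 0.34 for the members and 0.28 for all genes, so that mouse alone did not set the distance between them. Without it the median was 0.34 for the mitosis genes, above that of all genes, and 0.24 for the S phase genes, below that of all genes.

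Pairs of members were positively correlated over the mice, as a description of 9 arrays on which all genes share the RNA and the normalization. The median Pearson r was 0.40 over the 10 pairs of S phase genes, 0.43 over the 45 pairs of mitosis genes and 0.33 over the 50 pairs across the lists, compared with 0.02 over all pairs of the 5887 genes. Without mouse 8 of feed B the values were 0.58, 0.41 and 0.32, and after each feed was centred on its own mean they were 0.65, 0.49 and 0.42. For the mitosis genes r within the list was little higher than across the lists in each of these, whereas for the S phase genes it was higher without mouse 8 of feed B and after centring. With median scaling r rose to 0.79, 0.79 and 0.76, but r over all pairs of genes then was 0.58.

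The co-varying sets followed the S phase and mitosis lists only in part. *Ccna2* was closest to *Cenpa* (r = 0.95) and to *Top2a* (r = 0.94), and both held without mouse 8 of feed B (r = 0.93 for each). *Mcm4* and *Mcm5* went together (r = 0.94, and 0.95 without that mouse), and with *Bub1* (r = 0.85 and 0.82), although *Bub1* is a mitosis gene. *Mcm3* and *Mcm6* (r = 0.92) were closer to *Top2a*, with r = 0.81 and 0.79, than to *Mcm4*, with r = 0.36 and 0.12. The tie to *Top2a* rested on mouse 8 of feed B, since without it r was 0.50 for *Mcm3* and 0.24 for *Mcm6*. *Pcna* followed the other members least among genes with 1 probe, with a median r of 0.12. The averaged values of *Cdc20* and *Mad2l1* had negative median r, -0.10 for each, but on their brightest probes the median r was 0.63 and 0.53. *Birc5* moved the other way, from 0.41 to -0.26 on its brightest probe.

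**Figure D4:**
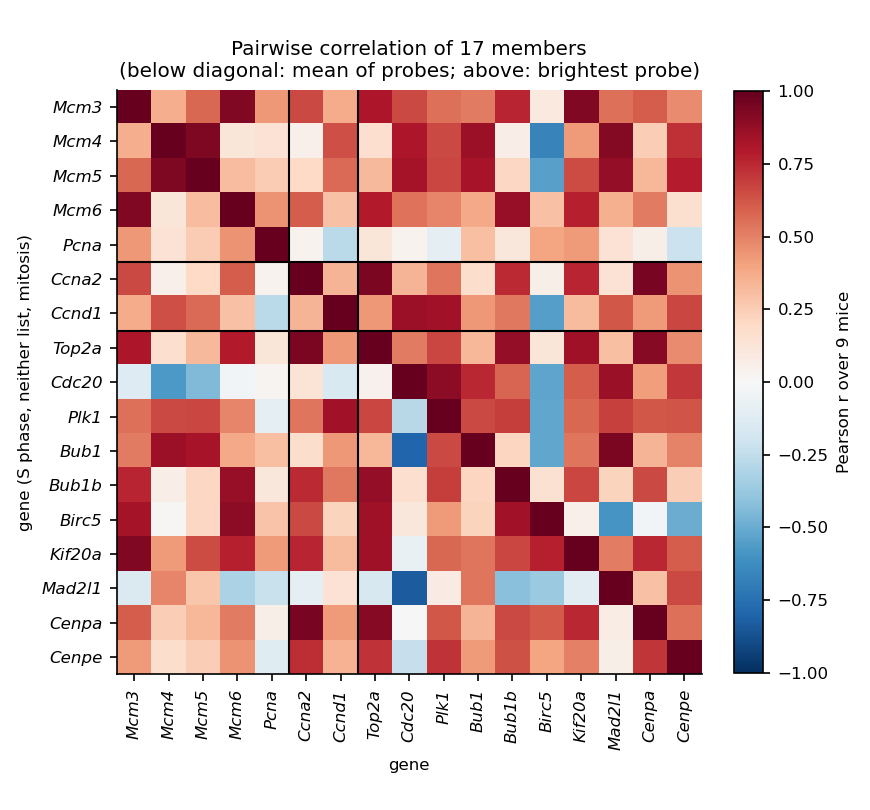
Pearson r over 9 mice for each pair of the 17 members detected on all arrays, ordered as S phase genes, genes of neither list and mitosis genes, with the mean of probes under the diagonal and the brightest probe above it. *Mcm4*, *Mcm5* and *Bub1* are close to each other, as are *Ccna2*, *Top2a* and *Cenpa*, and *Cdc20* changes sign between the triangles.

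The feeds were compared with limma over all 9652 genes with a test, with Benjamini-Hochberg adjustment. No member passed an adjusted p of 0.05 in the F test over the 3 feeds (0 of 28, with 0% of all genes), and at an unadjusted p of 0.05 the count was also 0 of 28, against 5.37% of all genes. With 1 mouse left out the unadjusted count was 0 to 1. An exact permutation test of F over 280 splits of the mice also passed 0 members, adjusted or not. A gene could pass its adjusted threshold only if many genes tied at the smallest possible p, so the adjusted result says little. For feed K against feed B, 0 of 28 members passed the adjusted threshold (0% of all genes) and 3 passed the unadjusted one, all higher on feed K, where 4.34% of all genes were. Without mouse 8 of feed B or without mouse 1 of feed K that count was 0, and without mouse 4 of feed K or mouse 4 of feed G it was 1. Over all runs that left out 1 mouse the count was 0 to 4, so that it also rose. For feed G against feed B no member passed either threshold (0% and 5.74% of all genes in either direction). With 1 mouse left out, 0 to 2 members passed the unadjusted one. For feed G against feed K 0 passed the adjusted threshold (0%) and 2 the unadjusted one, both lower on feed G, where 2.39% of all genes were. That count was 0 without mouse 1 of feed K, without mouse 4 of feed K or without mouse 11 of feed G, and 1 without mouse 10 of feed B or mouse 8 of feed G.

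*Ccnd1* and *Rrm2* were among the 3 members with the smallest p for feed K against either other feed, and both comparisons share the mice of feed K. *Ccnd1* was 0.82 ± 0.32 (SE) higher on feed K than on feed B on the log2 scale (limma, unadjusted p = 0.0341, adjusted p = 0.786) and differed by -0.79 ± 0.32 between feeds G and K (unadjusted p = 0.0393, adjusted p = 0.960, limma). *Rrm2* differed by 0.58 ± 0.24 between feeds K and B (unadjusted p = 0.0412) and by -0.65 ± 0.24 between feeds G and K (unadjusted p = 0.0268), with the same adjusted p in limma. *Ccne1* differed by 1.44 ± 0.60 between feeds K and B (limma, unadjusted p = 0.0438, adjusted p = 0.786). These 3 genes act before or in S phase, and none of their differences passed the adjustment.

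The next members by p lay further from the threshold. For feed G minus feed B these were *Ccnb2*, with 0.96 ± 0.50 (unadjusted p = 0.0898), *Bub1b*, with 1.23 ± 0.78, and *Mcm6*, with 0.38 ± 0.26. All 3 had their lowest value in mouse 8 of feed B. For *Bub1b* the difference was -0.17 without mice 7 and 8 of feed B, whose arrays detected the fewest probes. For feed G minus feed K the third was *Pcna*, with 0.29 ± 0.18 (unadjusted p = 0.133). The values of feeds did not overlap for 1 of 28 members between feeds K and B (*Rrm2*, 9.95% of all genes), for 0 between feeds G and B (10.9%) and for 2 between feeds G and K (*Rrm2* and *Pcna*, 13.6%). These shares were below those over all genes.

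**Figure D5:**
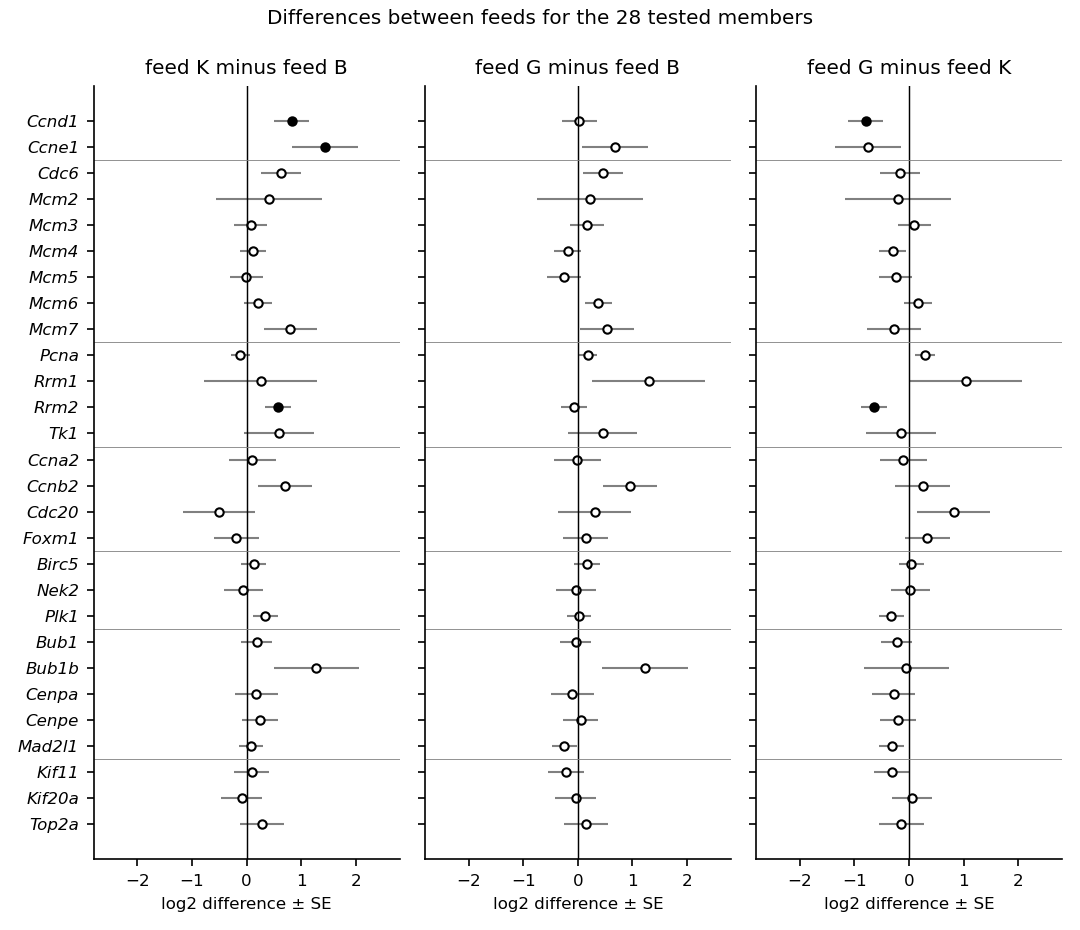
Log2 difference between feeds with its SE for the 28 tested members (rows, by role) in the 3 pairs of feeds (panels), with filled points at an unadjusted p under 0.05 in limma. *Ccnd1* and *Rrm2* are filled for feed K against both other feeds and *Ccne1* for feed K against feed B.

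In sign, the difference of feed K minus feed B was above 0 for 22 of 28 members, with a median of 0.20, against 56.9% of all genes and a median of 0.05. For feed G minus feed B, 18 of 28 were above 0 (median 0.14), against 57.1% of all genes (median 0.06), and for feed G minus feed K 10 of 28 (median -0.16), against 49.1% (median -0.01). With median scaling 28 of 28 were above 0 for feed G minus feed B, where 88.3% of all genes were, and in the table of the series 27 of 28, where 78.8% were. For feed K minus feed B the counts were 26 of 28 in both, with 83.3% and 71.8% of all genes. With median scaling the median of all genes itself was 0.41 for feed K and 0.53 for feed G against feed B, and that of the members 0.59 and 0.57. The SE of a difference ranged from 0.18 to 1.03 over the members, and the number of arrays limits the precision.

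Other genes of the pathway were taken from 3 lists that do not contain the members. Of the replication and licensing list 31 of 49 genes were tested, of the G2 and mitosis list 26 of 50, and of the list of G1 control and inhibitors 22 of 33, and 0 passed the adjusted threshold in any pair of feeds. The 3 genes named next were chosen after their values were seen. At an unadjusted p of 0.05 in limma, *Pola2*, a subunit of DNA polymerase alpha, differed by 0.79 between feeds K and B and by 0.47 between feeds G and B. *Kif4*, a motor of the spindle midzone, differed by 1.66 and 1.39 in these pairs, and *Wee1*, the kinase that restrains Cdk1, differed by 1.11 between feeds G and B. *Kif4* was detected on 6 arrays and *Wee1* on 7. For feed K above feed B these were 1 of 31 replication and 1 of 26 mitosis genes, against 4.34% of all genes. For feed G above feed B they were 1 of 31 and 2 of 26, against 3.84%. Of 16 replication genes and 16 mitosis genes of these lists detected on all arrays, 4 in each were lowest in mouse 8 of feed B, against 10.8% of all genes, while 6 and 9 were lowest in mouse 11 of feed G, against 17.3%. Of 17 genes of G1 control and inhibitors, 2 were lowest in each of these mice, together 23.5% against 28.1% of all genes. The mean centred signal in mouse 8 of feed B was 0.03 for the replication list, -0.29 for the mitosis list and -0.02 for the list of G1 control, so that the low values of that mouse were not found in each list.

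Markers of cell types and of the clock were read in the same mice, and their part in the differences between mice was not tested. *Mef2b* and *Bcl6*, genes of germinal centre B cells, which divide in lymphoid follicles, were each detected on 1 array. The summed signal of 6 B cell genes was 3052 to 5286, 847.5 to 4933 and 2245 to 5139 on feeds B, K and G, and its low mice were mice 1 and 3 of feed K, which were the highest and the third lowest mouse for the mean of the members. That of 5 T cell genes was 904.0 to 2160, 1072 to 4531 and 1094 to 2915, lowest in mouse 8 of feed B, where 4 of the 5 had their lowest value. The remaining gene, *Cd4*, had its highest value of all mice there, at 9.03. None of the 5 was detected on all arrays.

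Of 3 crypt stem cell genes with a probe, *Smoc2* and *Axin2* were lowest in mouse 8 of feed B, at 8.72 and 8.56. *Ascl2* was not, with 8.53 in that mouse and a range of 6.86 to 8.96 over all mice. Only *Smoc2* was detected on all arrays. The summed signal of the 3 genes was 1168 to 2984 on feed B, 1949 to 2029 on feed K and 1724 to 2059 on feed G. All 5 Paneth cell genes were lowest in mouse 11 of feed G, where the antimicrobial peptide gene *Defcr5* was 17.23 against at least 18.61 in the other mice, and their summed signal was 920105 to 1090011 on feed B, 634980 to 1028195 on feed K and 228307 to 1115561 on feed G. The summed signal of 5 genes of absorptive enterocytes, the cells of the villi that no longer divide, was 1446404 to 2239819, 1906995 to 2275065 and 1900378 to 2275303, highest within feed B in mouse 8. The mean centred signal of these genes did not follow the sum, with -0.48, -0.21 and -0.13 in mice 7, 8 and 10 of feed B. In mouse 8 of feed B, *Fabp2* was highest within its feed, at 20.68, while *Anpep* was lowest of all mice, at 17.54. The 4 smooth muscle genes detected on all arrays were also lowest in mouse 11 of feed G, with a mean centred signal of -0.54. The clock output gene *Dbp* was 12.46 in mouse 8 of feed B, against 10.56 and 9.98 in mice 7 and 10, and 12.69 to 13.99 on the other feeds. The summed signal of the 6 clock genes was 4337 to 10497 on feed B, 11673 to 19012 on feed K and 14709 to 24527 on feed G. That sum pools genes that went opposite ways. For feed G minus feed B the log2 difference was 2.39 for *Dbp*, 2.08 for *Tef*, 1.20 for *Nr1d2* and 3.35 for *Per2*. It was -2.12 for *Arntl* and -1.14 for *Nfil3*. In mouse 8 of feed B the sums of the crypt and T cell lists were thus the lowest of all mice, although *Ascl2* and *Cd4* were not low there. The sums of the goblet cell and adipocyte lists were not the lowest in that mouse. The mean centred signal of their genes detected on all arrays (3 and 2 genes) was the lowest of all mice there, at -0.41 and -0.59. The clock sum of that mouse was the highest of its feed.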

How the data were processed

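Jejunal RNA of 9 mice was hybridized to Applied Biosystems Mouse Genome Survey arrays, 1 mouse per array. The deposited array files give, per probe, an intensity that the authors' scanner software had corrected for background and normalized in space, a signal-to-noise score and a quality flag, where flags above 5000 mark failed spots. RMA is named in the submitters' processing notes without a version. The deposited table of the series holds the assay-normalized intensity of the same arrays and was used as an alternative.

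Failed spots were left out, intensities were quantile normalized and log2 transformed, and probes were averaged per gene symbol. A gene detected (signal-to-noise at least 3) on at least 3 arrays was tested with limma 3.58.1 (R 4.3.3), with no covariates, as an F test and 3 contrasts with Benjamini-Hochberg adjustment at 0.05. Tables and figures were made with Python 3.11.15, numpy 2.4.6, pandas 2.3.3 and matplotlib 3.10.9, and the code was tested on simulated data. Values are given for the members with the widest and narrowest range of each role, for the 3 with the smallest p of each contrast, and for others chosen after their values were seen. Groups follow the labels. Each array is a separate mouse, and how the mice were related is not given in the sources used here. The number of arrays limits the precision. Alternatives covered scaling, probe choice, filters, failed and dim spots and leaving out each mouse. The members and lists were chosen with earlier results of these data known.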

Additional observations from a re-analysis of the deposited data

Results flagged for a closer look

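Over all 9 mice, 9 of the 28 tested members had 1 mouse whose gap to the nearest other mouse was more than 0.493 of the whole range, or 32.1%, against 9.42% of 9648 tested genes, where chance flags about 1 in 20. For 3 of the 9 the gene was not detected in that mouse, and for *Cdc20* the gap came from a failed spot. Groups of 3 mice are too small for this test.

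Mouse 8 of feed B was the low mouse for 6 of them. The gap was 0.713 of the range for *Bub1b*, 0.665 for *Birc5*, 0.639 for *Ccnb2*, 0.561 for *Mcm6*, 0.555 for *Tk1* and 0.536 for *Top2a*, and *Ccnb2* and *Tk1* were not detected in that mouse. With probes averaged, the mean centred signal of the mitosis genes had a gap of 0.595 in the same mouse. That gap depended on the averaged *Cdc20*, which raised the mean of mouse 11 of feed G. On the brightest probes the mitosis mean was -0.69 in mouse 8 of feed B and -0.36 in mouse 11 of feed G, the next lowest. The highest mean was 0.37, in mouse 1 of feed K, so that the gap was then under the limit. For *Birc5* the gap came from the dimmer of its probes.

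Mouse 11 of feed G was low for *Bub1*, with a gap of 0.518, and high for *Cdc20*, with a gap of 0.547, where only the brighter probe gave a value. Mouse 7 of feed B was low for *Cdc6*, with a gap of 0.658, and *Cdc6* was not detected there.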

How the results depend on the processing

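No member passed the adjusted threshold in any comparison under any setting. The number of all genes that passed was 0 as reported, and 1 for the F test and 1 for feed G minus feed B with genes detected on all 9 arrays. With spots of signal-to-noise under 1 left out, a setting chosen after seeing the data, it was 3 for the F test, and 3 each when feed G was set against feed B or feed K. Leaving out 1 mouse gave 0 to 3 genes for the F test, 0 to 10 when feeds K and B were compared, 0 to 3 when feeds G and B were, and mouse 10 of feed B gave the highest count in each.

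Of the named differences, *Bub1b* for feed G minus feed B was -0.17 without mice 7 and 8 of feed B, also chosen after seeing the data, in place of 1.23. The differences of *Ccnb2*, *Ccnd1*, *Ccne1*, *Mcm6*, *Pcna* and *Rrm2* kept their sign in every setting, and those of *Pola2*, *Kif4* and *Wee1* were not run under other settings.

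The median SD of the members, 0.35, was 0.56 with median scaling, 0.48 in the table of the series, 0.46 with dim spots left out, 0.31 without mice 7 and 8 of feed B, 0.45 over members detected on at least 5 arrays and 0.50 with no filter, and 0.34 to 0.38 with 1 mouse left out. The S phase minus mitosis mean on feed K was 0.18 with no filter. With median scaling the members' mean was 0.20 on feed G and -1.09 in mouse 8 of feed B.

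The median r within S phase, within mitosis and across the lists was 0.79, 0.79 and 0.76 with median scaling, 0.70, 0.66 and 0.64 in the table of the series, 0.62, 0.51 and 0.57 with dim spots left out, 0.53, 0.49 and 0.37 without mice 7 and 8 of feed B, 0.65, 0.49 and 0.42 as deviations from feed means, and 0.20, 0.35 and 0.27 with no filter. Within S phase it was 0.21 and within mitosis 0.55 over members detected on at least 5 arrays, and within S phase 0.59 as Spearman's rho. Within mitosis and across the lists it was 0.55 and 0.48 on the brightest probe and 0.51 and 0.40 with failed spots kept, and 0.29 across the lists with the members matched by accession added. With 1 mouse left out the ranges were 0.31 to 0.58, 0.39 to 0.52 and 0.31 to 0.41. The cause of these shifts was not tested.

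No paired analysis was possible because any 2 feeds share at most 1 mouse number. A block for slide or scan was not run, since no such batch held over 1 array. Signal over background limited the members, with 17 detected on all arrays at a signal-to-noise ratio of 3, 19 at 2 and 13 at 5.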

Other observations

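*Wee1*, *Kif4* and *Pola2* were the genes of the other cell cycle lists with an unadjusted limma p under 0.05 in any pair of feeds. *Pola2* was detected on all arrays, with a log2 signal of 9.12, 9.11 and 9.40 on feed B, 10.05, 9.88 and 10.05 on feed K, and 9.81, 9.76 and 9.46 on feed G. All mice of feeds K and G lay above those of feed B, and the adjusted p was 0.693 for feed K and 0.841 for feed G against feed B.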
